A study of Mus musculus with 12 samples.

Results

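The genes described here are 47 genes of the DNA replication machinery, chosen by name for their roles: origin licensing, the replicative helicase, polymerases and primase, the sliding clamp and its loader, single-strand binding and lagging strand processing, nucleotide supply, control of entry into S phase, and chromatin assembly behind the fork. All 47 had a probe set with a single gene symbol on the array, out of 19935 such genes, and the brightest probe set stood for each gene. A filter on dim genes, a mean over all arrays above an intensity of 182, left 9967 genes for testing. Of the 47, 46 passed, and Ccne1, with a mean of 178, lay just under the filter. Orc1 lay just above it, with oil arrays at 140.4 to 184. It passed the filter in 10 of 12 fits that each left out 1 array, and not, for example, without female E2 replicate 1.

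The study profiled sorted hematopoietic stem cells (HSCs), the cells from which all blood lineages derive, on 12 arrays. The sort kept lineage-negative cells that carried Sca-1, c-kit and CD150 and lacked CD48, from mice aged 2 to 3 months. The 4 groups were male and female mice injected under the skin with 100 µL of corn oil, or with 2 µg of estradiol (E2) in the same volume of oil, and each group had 3 arrays from 3 mice. The oil vehicle was shared by all groups. Each array came from 5000 to 7000 sorted cells, so more cells in S phase cannot be told apart from more transcript per cell. The sources used here give neither the strain nor the number of injections nor the time between injection and sorting. The HSC markers Slamf1, Kit, Procr, Mecom, Hlf, Fgd5 and Tek all passed the filter (of these, Kit and Procr fell under E2 by 0.32 and 0.47 on the log2 scale), and Cd48, which the sort gated out, read 62.8 to 116 on every array, under the filter.

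Before a cell can copy its DNA, the origin recognition complex, Cdc6 and Cdt1 load the ring of Mcm2 to Mcm7 onto origins, a step called licensing that geminin (Gmnn) blocks once S phase has begun. Cdc45 and the GINS complex then turn the ring into the active helicase, primase and polymerase alpha lay down primers, polymerases delta and epsilon extend them on the clamp Pcna, and Fen1 and Lig1 join the lagging strand fragments. Many of these genes are targets of the E2F transcription factors and are transcribed around the entry into S phase. Adult HSCs are known as a mostly quiescent population, and in many tissues transcripts of this machinery mark cycling cells.

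Promoter stretches are shown for some of the members whose upstream sequence held an E2F-type match, since a shared E2F motif is a well known feature of these genes. Gins3, Mcm7 and Rfc3 also held a match before the start site and are not shown. The 8-letter forms TTTCCCGC, TTTCGCGC, TTTGCCGC and TTTGGCGC were searched on both strands from 250 bases before to 50 bases after the start sites in a RefSeq table (GRCm38.p6), and overlapping matches counted once per gene. Capitals mark the matches, and each stretch lies before the start site, on the gene's own strand.
Mcm5, helicase subunit, chr8:75109322-75109401, + strand: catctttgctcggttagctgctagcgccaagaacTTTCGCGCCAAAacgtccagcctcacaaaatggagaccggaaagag
Mcm6, helicase subunit, chr1:128359741-128359820, - strand: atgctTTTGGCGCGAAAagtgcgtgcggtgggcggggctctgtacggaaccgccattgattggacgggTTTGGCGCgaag
Cdc6, licensing factor, chr11:98908002-98908031, + strand: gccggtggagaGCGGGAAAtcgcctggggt
Orc1, origin recognition subunit, chr4:108579416-108579445, + strand: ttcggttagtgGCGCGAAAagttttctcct
Pola1, catalytic subunit of polymerase alpha, chrX:93632275-93632304, - strand: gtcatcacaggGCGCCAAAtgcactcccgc
The Mcm5 and Mcm6 stretches lie upstream of the RefSeq gene, whereas the Cdc6, Orc1 and Pola1 stretches lie inside the gene's span, because the start site in the table lies within it, and whether the bases there are exonic or intronic was not analysed here. In Mcm5 and in Mcm6, a TTTCGCGC match and a TTTGGCGC match on opposite strands overlapped.

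Of 38 members with a promoter in the table, 14 held an E2F-type match, or 36.8%, beside 5.01% of 8068 tested genes and 2.60% of 27025 genes in the table. The 14 were Orc1, Cdc6, Cdt1, Mcm3, Mcm5, Mcm6, Mcm7, Gins3, Pola1, Pold1, Pold3, Pole2, Rfc3 and Lig1. The CCAAT box, searched as CCAAT on both strands, was in 22 of the 38 (57.9%) beside 42.5% of tested genes. The palindromic estrogen response element, GGTCA and TGACC with any 3 bases between them, was in 0 of the 38, in 0 of the 8068 tested genes and in 20 of the 27025 in the table. The 14 genes with an E2F-type match had a median log2 fold change for E2, averaged over the sexes, of 0.31, and the 23 tested genes without one had 0.33. Both medians were thus close together, and 2 of the 14 (Cdc6 and Mcm5) and 5 of the 23 (Orc6, Fen1, Tk1, Dut and E2f1) passed the test described next. Gmnn and Pole, which also passed, have no entry in that table.

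The comparisons of E2 with oil asked whether estradiol changes gene expression in HSCs of each sex. Averaged over males and females, 9 of the 46 tested replication genes rose and 0 fell at an adjusted p under 0.05 by limma with Benjamini-Hochberg adjustment over all 9967 genes, while 3.12% of all tested genes were called higher and 8.90% in either direction. The 9 were Orc6, Cdc6 and Gmnn of licensing, Mcm5 of the helicase, Pole of the polymerases, Fen1 of the lagging strand, Tk1 and Dut of nucleotide supply, and the transcription factor E2f1. The changes were below 2-fold: their log2 fold changes ran from 0.27 for Dut to 0.76 for Cdc6. The median of the 46 genes was 0.33 beside -0.01 for all tested genes, and 45 of the 46 were above 0 beside 46.7% of all genes. Chaf1b, at -0.01 ± 0.11 (SE), was the exception.

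**Figure D1:**
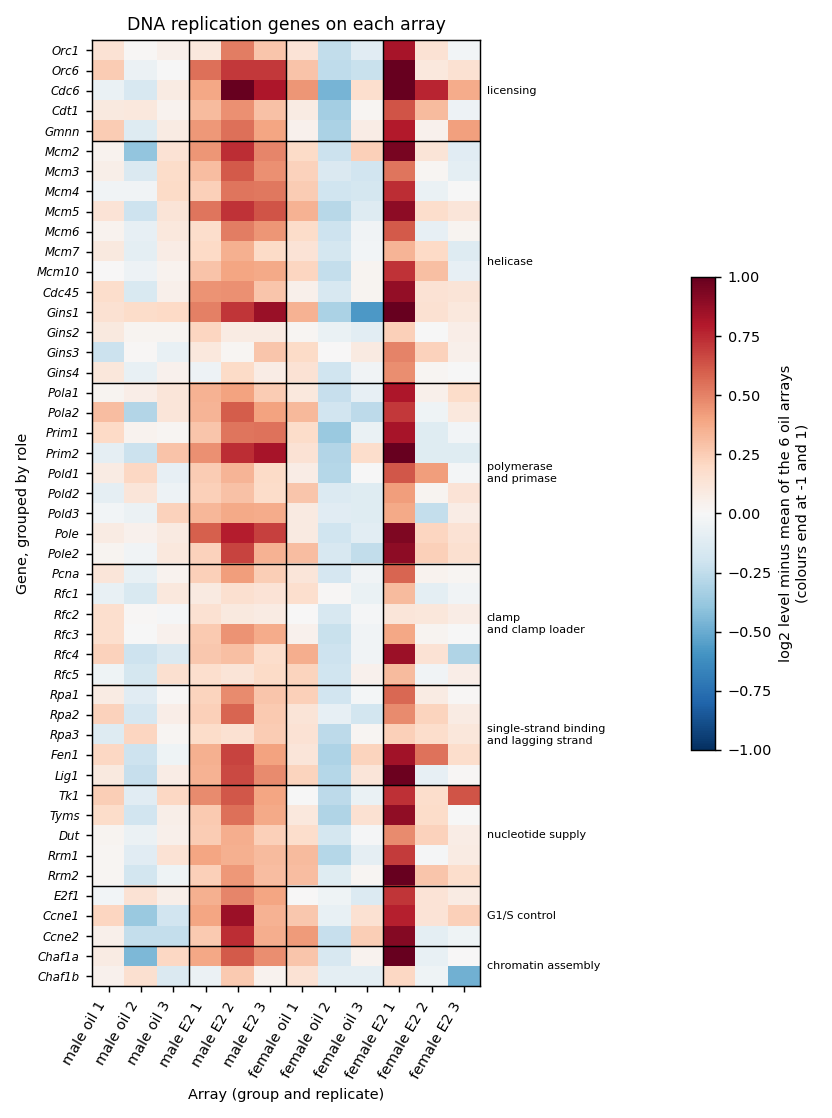
Each row is one of the 47 replication genes, grouped by role, and each column an array. Colour is the log2 intensity minus the gene's mean over the 6 oil arrays and ends at -1 and 1. The male E2 columns are red for most genes, female E2 replicate 1 is the darkest column, and female E2 replicates 2 and 3 are close to the oil arrays.

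The licensing genes had the highest median of the roles with more than 2 tested genes, 0.44 over 5 genes, and 3 of the 5 rose. Cdc6, which loads the helicase onto the origin complex, read 299.5, 280.5 and 332 on the male oil arrays, 411, 637 and 551.5 on the male E2 arrays, 427, 227 and 353 on the female oil arrays, and 713.5, 533 and 406 on the female E2 arrays. All male E2 arrays were above all male oil arrays, while female E2 replicate 3 lay below the highest female oil array. Its log2 fold change was 0.76 ± 0.16 (SE; limma adjusted p = 0.013), 0.79 in males and 0.72 in females. Orc6, the smallest subunit of the origin recognition complex, read 574, 462 and 478.5 on the male oil arrays, 707, 788 and 787 on the male E2 arrays, 586, 404 and 413 on the female oil arrays, and 1053, 518 and 536 on the female E2 arrays. The male groups were apart, and in females replicate 1 under E2 was the highest and the other E2 arrays were below the highest oil array. Orc6 rose by 0.56 ± 0.16 (adjusted p = 0.0441). Gmnn, whose product binds Cdt1 and prevents a second round of licensing, read 458, 351 and 408 on the male oil arrays, 522, 564.5 and 505 on the male E2 arrays, 396, 309 and 405 on the female oil arrays, and 668, 396 and 510.5 on the female E2 arrays. Its male groups were apart and its female groups overlapped, and it rose by 0.44 ± 0.12 (adjusted p = 0.0366).

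Cdt1, the licensing factor that geminin binds, read 578, 581 and 553 on the male oil arrays, 673, 742.5 and 661 on the male E2 arrays, 572, 428 and 549 on the female oil arrays, and 836.5, 674 and 523 on the female E2 arrays. The male groups were apart, and female E2 replicate 3 lay below 2 of the female oil arrays. It did not pass, at 0.33 ± 0.10 (adjusted p = 0.0699). Orc1, the ATPase of the origin complex, stood at 0.31 (adjusted p = 0.159), with a mean just above the filter.

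Of the 12 helicase genes, Mcm5 rose and 11 did not pass, with a median of 0.32 (0.21 without female E2 replicate 1). Mcm5, a subunit of the Mcm2 to Mcm7 ring, read 449.8, 353 and 448 on the male oil arrays, 592, 675 and 632 on the male E2 arrays, 521, 337 and 373 on the female oil arrays, and 759, 460.5 and 444 on the female E2 arrays. The male groups did not overlap, and the highest female oil array was above female E2 replicates 2 and 3. Mcm5 rose by 0.51 ± 0.14 (adjusted p = 0.0371). Mcm2, another subunit of the ring, read 713, 529 and 772 on the male oil arrays, 947, 1161 and 977 on the male E2 arrays, 798, 599.6 and 823 on the female oil arrays, and 1347, 762 and 645.5 on the female E2 arrays. It was apart in males and overlapped in females, where E2 replicates 2 and 3 lay inside the oil range, and it did not pass at 0.44 ± 0.16 (adjusted p = 0.11). The other ring subunits Mcm3, Mcm4, Mcm6 and Mcm7 had averaged log2 fold changes of 0.31, 0.33, 0.28 and 0.19, none of which passed.

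Cdc45, which joins the ring to form the active helicase, read 412, 327 and 377 on the male oil arrays, 497, 499 and 442 on the male E2 arrays, 376, 326 and 371 on the female oil arrays, and 671, 401 and 399 on the female E2 arrays. Both sexes were apart, females by a margin of 376 against 399, and the gene missed the threshold at 0.39 ± 0.12 (adjusted p = 0.0572). The 4 GINS subunits had unequal values. Gins1 was at 0.59 (adjusted p = 0.0663), Gins3 at 0.20, and Gins2 and Gins4 at 0.11 each, none of them called. Mcm10, which helps to activate the helicase, was at 0.33 (adjusted p = 0.0902).

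Of the 9 polymerase and primase genes, Pole rose and 8 did not pass, with a median of 0.34. Pole, the catalytic subunit of the leading strand polymerase epsilon, read 448, 438 and 452 on the male oil arrays, 643, 731 and 681 on the male E2 arrays, 452, 368 and 393.5 on the female oil arrays, and 813, 492 and 469 on the female E2 arrays. Its arrays were apart in both sexes, and the male oil arrays lay within 438 to 452. Pole rose by 0.56 ± 0.12 (adjusted p = 0.00963). Pole2, the second subunit of that enzyme, read 246, 236 and 260.3 on the male oil arrays, 284, 387 and 308.5 on the male E2 arrays, 299.8, 216 and 204 on the female oil arrays, and 451, 285 and 270.0 on the female E2 arrays. Its male groups were apart, its female groups overlapped, and it did not pass at 0.42 ± 0.13 (adjusted p = 0.0651).

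Pola1, the catalytic subunit of polymerase alpha, read 532, 546 and 567 on the male oil arrays, 663, 689 and 621.5 on the male E2 arrays, 561, 444 and 492 on the female oil arrays, and 916, 540.3 and 591 on the female E2 arrays. Males were apart, and female E2 replicate 2 lay below the highest female oil array, with an averaged value of 0.34 ± 0.11 (adjusted p = 0.0752). Pola2, its second subunit, was at 0.35 (adjusted p = 0.146). The primase subunits Prim1 and Prim2 were at 0.34 and 0.47, and the polymerase delta subunits Pold1, Pold2 and Pold3 at 0.30, 0.22 and 0.22, all without a call.

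None of the 6 clamp and clamp loader genes passed, and their median of 0.19 was the lowest of the roles with more than 2 tested genes (0.096 without female E2 replicate 1). Pcna, the ring that tethers polymerases to DNA, read 3035, 2647 and 2849 on the male oil arrays, 3291, 3725 and 3299 on the male E2 arrays, 3022, 2480 and 2713 on the female oil arrays, and 4165, 2849 and 2829 on the female E2 arrays. The male groups were apart, and female E2 replicates 2 and 3 lay inside the oil range, with a value of 0.26 ± 0.10 (adjusted p = 0.116). Rfc3, a subunit of the loader that opens the clamp, read 677, 599 and 619 on the male oil arrays, 721, 822 and 778 on the male E2 arrays, 619, 516 and 586 on the female oil arrays, and 786, 612 and 599.8 on the female E2 arrays. It was apart in males only, at 0.25 ± 0.08 (adjusted p = 0.0694). Rfc1, Rfc2, Rfc4 and Rfc5 were at 0.09, 0.11, 0.24 and 0.14.

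Of 5 genes of single-strand binding and lagging strand processing, Fen1 rose and 4 did not pass, with a median of 0.31. Fen1, the nuclease that trims the flap of a lagging strand fragment, read 472, 354 and 396 on the male oil arrays, 523, 654 and 539 on the male E2 arrays, 444, 330.3 and 478 on the female oil arrays, and 733, 594 and 460.2 on the female E2 arrays. Males were apart, and female E2 replicate 3 lay below the highest oil array. Fen1 rose by 0.50 ± 0.12 (adjusted p = 0.0261). Rpa2, a subunit of the single-strand binding complex, read 945.5, 718 and 843 on the male oil arrays, 948, 1209 and 968 on the male E2 arrays, 883, 762 and 709 on the female oil arrays, and 1118, 939 and 851 on the female E2 arrays. Its male groups were apart by a margin of 945.5 against 948, and it did not pass at 0.31 ± 0.10 (adjusted p = 0.0649). Rpa1 and Rpa3 of the same complex were at 0.27 and 0.19, and the ligase Lig1 at 0.40 (adjusted p = 0.142).

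Of the 5 nucleotide supply genes, Tk1 and Dut rose and 3 did not pass, with a median of 0.38 (0.24 without female E2 replicate 1). Tk1, thymidine kinase, read 699, 543 and 679.7 on the male oil arrays, 816, 905 and 772 on the male E2 arrays, 586, 491 and 561 on the female oil arrays, and 979.7, 664 and 909 on the female E2 arrays. It was apart in both sexes. On this probe set, the brighter one, female E2 replicate 3 was nearly as high as replicate 1, unlike most of these genes. Tk1 rose by 0.50 ± 0.10 (adjusted p = 0.00815). A second Tk1 probe set gave 0.62 in males and 0.61 in females beside 0.38 and 0.62 for the brighter one. Its female E2 arrays ran from 592.1 to 905.8 with a mean of 718.4, nearer the lowest. The second probe set thus did not share the pattern of nearly equal high arrays. Whether the brighter one also matches a near-identical copy elsewhere in the genome was not tested, so the Tk1 values are uncertain to that extent. Dut, which removes dUTP so that uracil is not built into DNA, read 1365, 1286 and 1390 on the male oil arrays, 1601, 1727 and 1584 on the male E2 arrays, 1512, 1187 and 1330 on the female oil arrays, and 1861, 1578 and 1409 on the female E2 arrays. Males were apart and females overlapped, and Dut rose by 0.27 ± 0.08 (adjusted p = 0.0475), the smallest change among the called genes. Rrm2, the S phase subunit of ribonucleotide reductase, read 397, 344 and 380.3 on the male oil arrays, 462, 529.5 and 485 on the male E2 arrays, 485, 360.3 and 398 on the female oil arrays, and 789, 475 and 443 on the female E2 arrays. Its lower female E2 arrays lay below the highest female oil array, and it did not pass at 0.41 ± 0.13 (adjusted p = 0.0619). Tyms and Rrm1 were at 0.38 and 0.30.

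Of the genes that control entry into S phase, E2f1 rose, Ccne2 did not pass and Ccne1 was not tested. E2f1, an activating E2F factor, read 723.5, 814 and 767 on the male oil arrays, 944, 1037 and 968 on the male E2 arrays, 739.8, 716 and 670.3 on the female oil arrays, and 1208, 809.5 and 779 on the female E2 arrays. It was apart in both sexes and rose by 0.36 ± 0.10 (adjusted p = 0.0343). Ccne1, which encodes cyclin E1, the partner of Cdk2, read 176, 117 and 133 on the male oil arrays, 200.1, 276 and 193 on the male E2 arrays, 183, 144 and 169 on the female oil arrays, and 261, 167 and 179 on the female E2 arrays. Its male groups were apart and its female groups overlapped, at levels close to the filter, so it has no test. Ccne2, the other cyclin E gene, read 217, 178 and 177 on the male oil arrays, 251, 350.5 and 271 on the male E2 arrays, 282, 178 and 248.5 on the female oil arrays, and 397.5, 196 and 204 on the female E2 arrays. It was 0.60 in males and 0.12 in females, with an averaged value of 0.36 ± 0.17 (adjusted p = 0.215).

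The chromatin assembly factor genes Chaf1a and Chaf1b, subunits of 1 complex that deposits histones on new DNA, did not pass. Chaf1a read 863, 595 and 941 on the male oil arrays, 1062, 1247 and 1126 on the male E2 arrays, 989, 728 and 834 on the female oil arrays, and 1648, 772 and 817 on the female E2 arrays. It was apart in males and overlapped in females, at 0.40 ± 0.17 (adjusted p = 0.169). Chaf1b read 589, 639 and 518 on the male oil arrays, 550.1, 686 and 586 on the male E2 arrays, 634, 536 and 534.5 on the female oil arrays, and 661, 557 and 411 on the female E2 arrays, with overlap in both sexes.

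**Figure D2:**
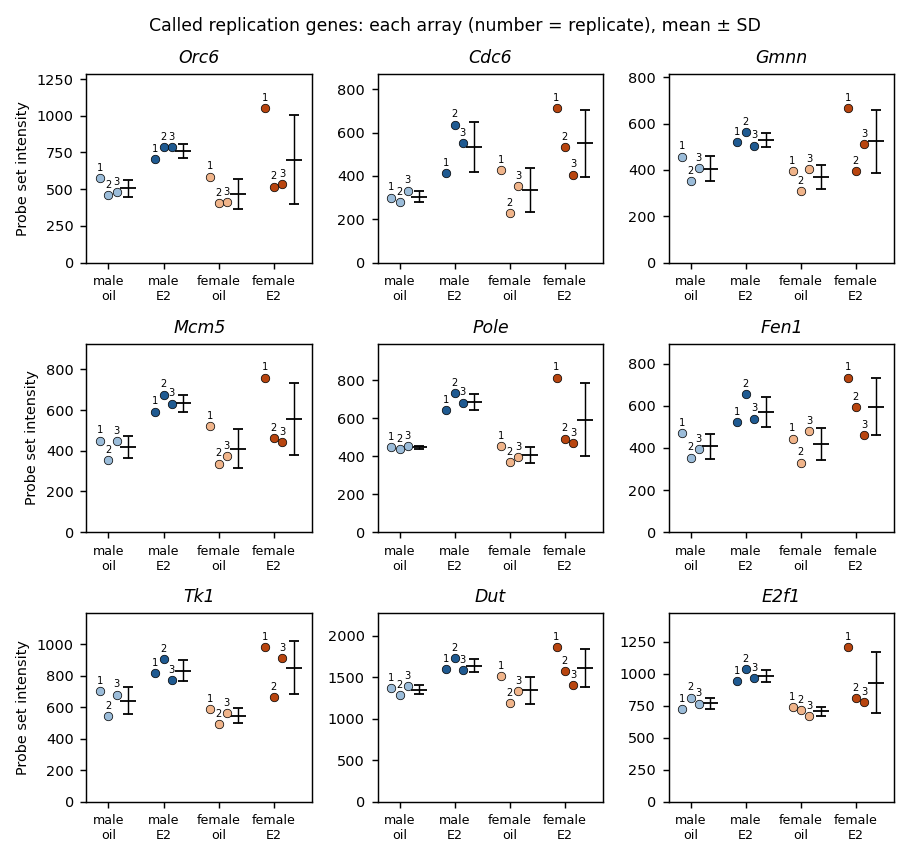
Probe set intensity of the 9 called genes on each array, by group, with the replicate number above each point and the group mean ± SD (n = 3) beside it. Female E2 replicate 1 is the highest of the 3 female E2 arrays in every panel, and for Pole and E2f1 all E2 arrays lie above the oil arrays of their sex, as they do for Tk1.

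Most of the 9 calls did not hold in every fit that left out an array. In 12 fits that each left out 1 array, Cdc6, Pole and Tk1 passed every time, and the other 6 of the 9 did not. Fen1 did not pass without male oil replicates 2 or 3, male E2 replicate 2 or female oil replicate 2 (adjusted p up to 0.0724). Gmnn did not pass without male oil replicates 2 or 3, any male E2 array, or female oil replicates 2 or 3 (up to 0.099). Mcm5, Orc6 and E2f1 did not pass when any 1 of the 6 male arrays, or female oil replicate 2 or 3, was left out (up to 0.102, 0.111 and 0.0861). Dut did not pass in those fits or without female E2 replicate 1 or 2 (up to 0.126). The number of called members was 5, 3 and 3 without male oil replicates 1, 2 and 3, and 4, 3 and 4 without male E2 replicates 1, 2 and 3, while the share of all genes called higher was 2.25%, 1.67% and 2.33%, and 2.06%, 1.69% and 1.71%. Leaving out female oil replicate 2 gave 3 (beside 1.48% of all genes), leaving out female oil replicate 3 gave 4 (1.78%), and leaving out female E2 replicate 3 gave 21 (4.53%). In these fits the count and the share of all genes were both below, or both above, their values with all arrays. A weaker filter moved the count as well, to 5 at the 25th percentile (beside 1.79% of the genes then tested) and 3 with no filter (0.973%).

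**Figure D3:**
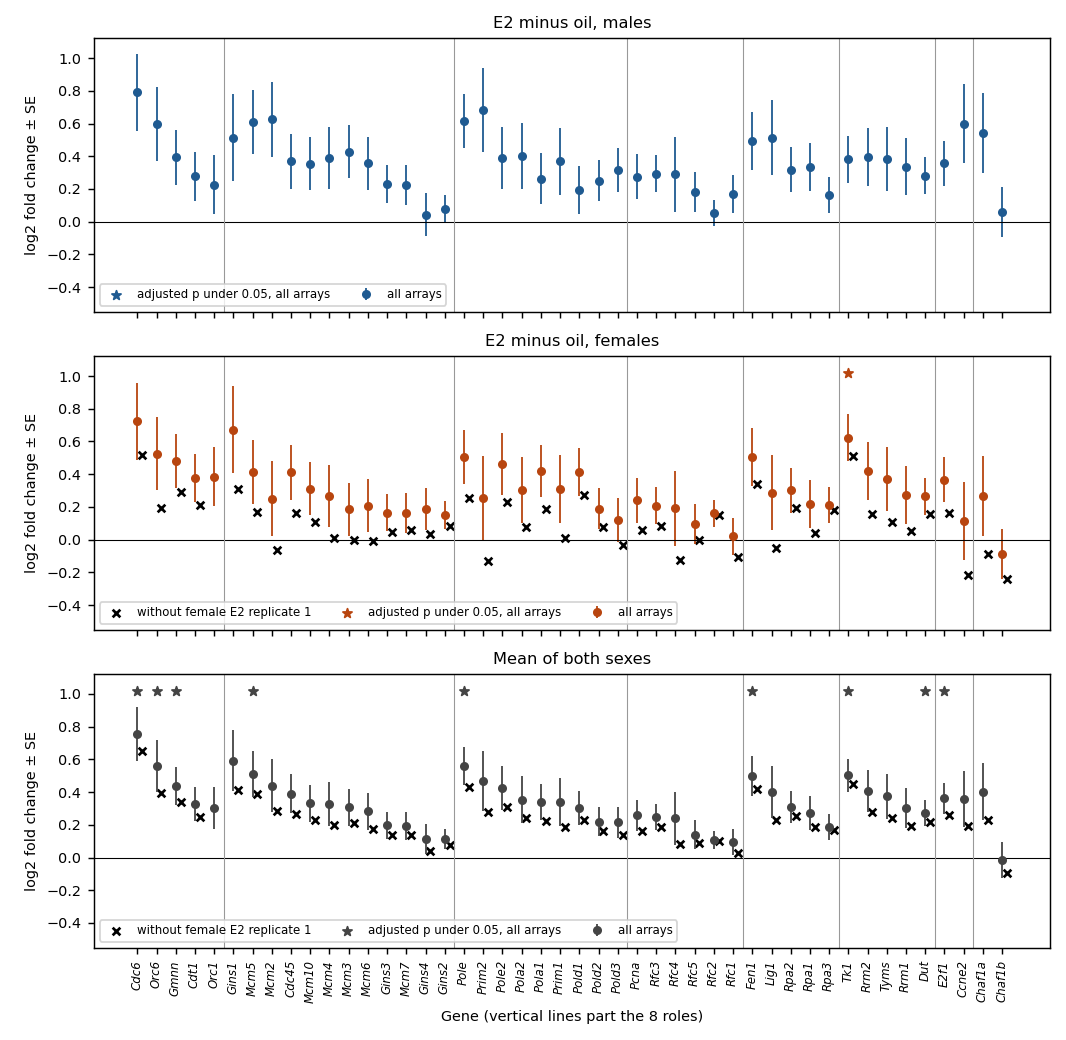
Log2 fold change of E2 over oil ± SE (from limma) for each of the 46 tested genes, in males, in females and averaged, with stars for an adjusted p under 0.05 and, in females and in the average, crosses for the fit without female E2 replicate 1. The crosses lie below the points for nearly all genes in females, by less in the average, and Orc1 has none because it falls under the filter in that fit.

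The male comparison used limma's fit to all 12 arrays, with 1 spread per gene shared by the 4 groups. Its result thus also depended on the spread of the female arrays. In it, 0 of the 46 replication genes passed, beside 0.572% of all tested genes called higher and 1.43% in either direction. An unadjusted p under 0.05 was seen for 23 of the 46, beside 1470 of all 9967 tested genes. The lowest adjusted p was 0.0939, for Pole at 0.62 ± 0.16. All 46 fitted changes were above 0, beside 50.0% of all tested genes, with a median of 0.35, a lowest value of 0.04 for Gins4 and a highest of 0.79 for Cdc6. For 36 of the 46, all 3 male E2 arrays lay above all 3 male oil arrays, beside 13.6% of all tested genes. The 10 that overlapped were Orc1, Gins2, Gins4, Pold1, Rfc1, Rfc2, Rfc4, Rfc5, Rpa3 and Chaf1b, which include 4 of the 5 Rfc genes. The count in males changed with the fit, as did the share of all genes called higher. It was 12 when only the male groups were fitted (beside 1.97% of all genes), 3 with array weights (1.86%), and 6 without female E2 replicate 1 (Orc6, Mcm2, Mcm5, Prim2, Pole and E2f1, beside 1.60% of all genes).

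In the female comparison, with the same shared spread, 1 of the 46 passed, Tk1 at 0.62 ± 0.14 (limma adjusted p = 0.0309), beside 0.813% of all tested genes called higher and 3.56% in either direction. An unadjusted p under 0.05 was seen for 16 of the 46, beside 1853 of all 9967 tested genes. The median was 0.27, and 45 of the 46 were above 0, beside 44.2% of all tested genes. The female E2 arrays lay above the female oil arrays for 5 genes, Cdc45, Pole, Rfc2, Tk1 and E2f1, beside 6.95% of all tested genes, so that separation was near the background. Tk1 did not pass when female oil replicate 1, 2 or 3 was left out (adjusted p = 0.0584, 0.143 and 0.0929), nor without female E2 replicate 1 (0.0616) or 3 (0.0622). The number of called members was 2 without female E2 replicate 2 (beside 0.752% of all genes) and 5 without female E2 replicate 3 (1.14%).

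The female values rested to a large part on female E2 replicate 1. It was the highest of the 3 female E2 arrays for all 46 tested genes and the highest of all 12 arrays for 38 of them, beside 17.9% of all tested genes. That array also stood apart in other ways. With array weights it had the lowest weight, 0.33, beside 0.60 to 2.10 for the others. It was the lowest of all 12 arrays for the HSC markers Kit, Procr, Hlf, Fgd5 and Tek, but not for Slamf1 or Mecom, beside 14.1% of all tested genes. The reason was not tested. Female oil replicate 2 was the lowest of all 12 arrays for 30 of the 46, beside 5.48% of all genes. The median spread (SD on the log2 scale, n = 3) of the 46 genes was 0.38 in E2-treated females, 0.22 in oil-treated females, 0.10 in E2-treated males and 0.13 in oil-treated males, beside 0.16, 0.10, 0.09 and 0.11 for all tested genes. Without female E2 replicate 1 the female median was 0.08, with 33 of 45 genes above 0, beside 4062 of all 9967 genes. Of the 45, 0 were called beside 1.33% of all genes (lowest adjusted p = 0.0616). The averaged median was then 0.22, and 10 of 45 were called, beside 3.19% of all genes: Cdc45 and Rrm2 passed, Dut did not (adjusted p = 0.0704), and the other 8 of the original 9 passed. Without both female E2 replicate 1 and female oil replicate 2 the female median was 0.00. The counts were then 0 of 45 in females, 9 in males and 4 on average, beside 0.933%, 1.49% and 1.93% of all genes.

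**Figure D4:**
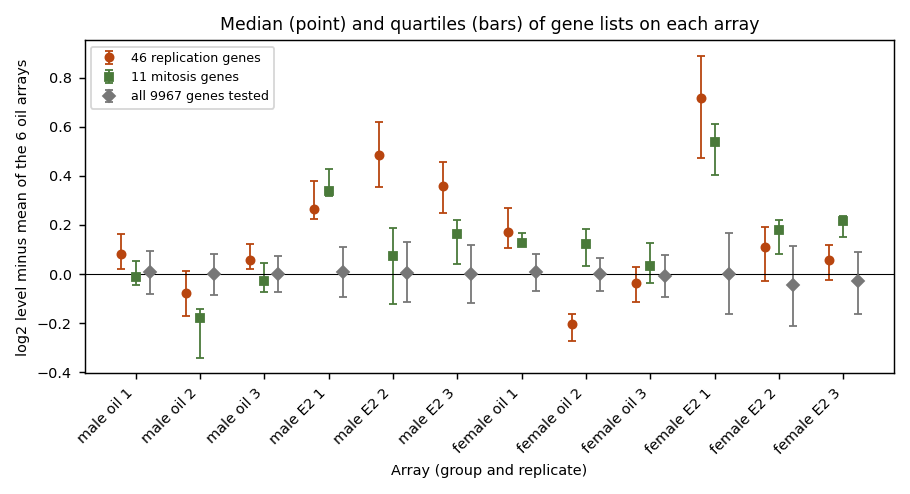
Median (point) and quartiles (bars) of log2 intensity minus the gene's mean over the 6 oil arrays, for the 46 tested replication genes, 11 mitosis genes and all 9967 tested genes, on each of the 12 arrays. All male E2 arrays lie above the male oil arrays for the replication genes, female E2 replicate 1 is the highest array, and all tested genes stay near 0.

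Set against each gene's mean over the 6 oil arrays, the median log2 level of the 46 genes was 0.08, -0.08 and 0.06 on the male oil arrays and 0.27, 0.48 and 0.36 on the male E2 arrays. It was 0.17, -0.20 and -0.04 on the female oil arrays and 0.72, 0.11 and 0.06 on the female E2 arrays. Female E2 replicates 2 and 3 were therefore below female oil replicate 1. Female oil replicate 1 was also the highest of all 12 arrays for Mpo, at 2775 beside 388 and 563 on the other female oil arrays. The same held for every granulocyte marker listed below except Ly6g, beside 4.83% of all tested genes. Of the other progenitor markers, Satb1, Ctsg and Irf8 were also highest on female oil replicate 1, the last 2 of them under the filter. Cd34, Flt3 and Cebpa were highest on other arrays. Whether this is linked to the replication values was not tested. By role, female E2 replicate 1 was the highest array for licensing (0.82), polymerases (0.81), nucleotide supply (0.73), the helicase (0.67) and the clamp and its loader (0.35), with male E2 replicate 2 next in each (0.55, 0.53, 0.43, 0.48 and 0.23). It was also the highest for the control of S phase entry (0.82 beside 0.61 on male E2 replicate 2) and chromatin assembly (0.61 beside 0.44). For single-strand binding and lagging strand processing both arrays were at 0.58, male E2 replicate 2 being slightly the higher.

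Mitosis genes shared the order of the replication genes among the arrays only in part. For 11 of them, among them Mki67, Cdk1, Aurka and Plk1, the median was 0.34, 0.08 and 0.16 on the male E2 arrays, so the array with the highest replication median in that group had the lowest mitosis median. On the female E2 arrays the mitosis median was 0.54, 0.18 and 0.21, and replicate 1 was again the highest of all 12 arrays. On the male oil arrays it was -0.01, -0.18 and -0.03, with replicate 2 again the lowest of that group. On the female oil arrays it was 0.13, 0.12 and 0.03, whereas the replication genes were lowest on replicate 2. Of these 11 genes, Cdk1 and Ndc80 rose in the averaged comparison and 9 did not pass, beside 3.12% of all tested genes called higher, with a median of 0.22. Cdk1 passed in all 12 fits that left out 1 array, and Ndc80 did not pass in 7 of them (adjusted p up to 0.0867).

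No difference between the female and the male response was detected for any of the 46 genes. In the test of the difference between the responses 0 of 46 passed, beside 0.0100% of all genes in either direction, none had an unadjusted p under 0.05 with all arrays, and the lowest adjusted p was 0.954. The largest fitted differences, female minus male, were -0.48 for Ccne2 and 0.24 for Tk1. The median difference was -0.06 beside -0.04 for all genes, with 16 of 46 above 0 beside 40.5%. Without female E2 replicate 1 the median difference was -0.24 beside -0.05, with 40 of 45 genes below 0. Of all 9967 genes, 3909 were above 0 in that fit. Again 0 replication genes passed (lowest adjusted p = 0.252), while 8 of 45 had an unadjusted p under 0.05, beside 1156 of 9967 genes. Without that array and female oil replicate 2 the median was -0.31, and 42 of 45 were below 0, while 3995 of all 9967 genes were above 0. Of the 45, 18 had an unadjusted p under 0.05 beside 1107 of all genes, and 0 passed (lowest adjusted p = 0.209).

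Under oil, no difference between the sexes was detected in these genes. In limma's test of female minus male, 0 of 46 passed, beside 0.0401% of all genes, and none had an unadjusted p under 0.05. The median was -0.05, with 15 of 46 above 0 beside 49.2% of all genes, from -0.36 for Gins1 to 0.29 for Ccne2. Without female oil replicate 2 the median turned to 0.02, with 27 of 46 above 0 beside 4956 of all 9967 genes, and again 0 passed.

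Other genes of DNA replication, 70 in number and sorted by role in the same way, gave 18 higher and 0 lower of 63 tested in the averaged comparison, with a median of 0.26. Of all tested genes, 3.12% were called higher and 8.90% in either direction. Of the rest, 5 lay under the filter and 2 were not analysed here. By role, 2 of 14 genes of origin recognition and firing rose, 7 of 16 of the fork and polymerase accessories, 3 of 9 of nucleotide supply, 4 of 10 of chromatin and methylation copying, and 2 of 14 of a group of E2F partners, retinoblastoma relatives and S phase regulators such as Cdk2 and Ccna2. The 12 with the smallest p included the fork checkpoint genes Clspn at 0.64 ± 0.11 (limma adjusted p = 0.00357), Tipin at 0.48 (0.0161) and Timeless at 0.44 (0.0332). The nuclease and helicase gene Dna2 was at 0.46 (0.00388), Pclaf, which binds the clamp, at 0.47 (0.00656), and Wdhd1, which ties polymerase alpha to the helicase, at 0.48 (0.0275). Cdc7, the kinase that fires origins, was at 0.47 (0.00918), and the nucleoside diphosphate kinase Nme1 at 0.37 (0.00854). Uhrf1 and Hells, which act in copying DNA methylation, were at 0.58 (0.00911) and 0.56 (0.0368), the histone-binding Rbbp7 at 0.25 (0.0288), and the retinoblastoma relative Rbl1 at 0.32 (0.0311). Clspn, Dna2, Pclaf, Nme1, Uhrf1 and Cdc7 passed in all 12 fits that left out 1 array, and the other 12 of the 18 did not pass in 1 to 9 of them (adjusted p up to 0.123). Not every gene of the list lay above 0: Pold4, a small subunit of polymerase delta, was at -0.37 without passing.

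Markers of other cells moved with treatment as well. Of 5 measured megakaryocyte markers, 4 fell and 1 rose in the averaged comparison, beside 8.90% of all tested genes called in either direction. The summed intensity of these 5 was 2986 to 3266 in oil-treated and 2203 to 2544 in E2-treated males, and 3047 to 3293 and 1612 to 2310 in females. Of 5 tested markers of multipotent and myeloid progenitors, Flt3, Cd34 and Satb1 fell and Cebpa rose, with sums over 7 measured genes of 2721 to 4102 and 2613 to 2779 in males, and 3088 to 6270 and 2689 to 3780 in females. Erythroid sums over 5 genes were 2475 to 2878 and 2710 to 3075 in males and 2464 to 3264 and 2805 to 3365 in females, with Tfrc, the transferrin receptor, higher. Granulocyte sums over 8 genes ranged from 5068 to 18240 and overlapped between oil and E2 in both sexes, with Prtn3 lower. B cell sums over 5 genes were 727 to 992 and 610.2 to 739.5 in males and 781 to 824 and 605 to 652 in females, and T and NK cell sums over 7 genes were 1214 to 1420 and 881 to 974 in males and 1155 to 1369 and 959 to 998.5 in females. Of these genes only Cd79b and Nkg7 were called lower. Group means under oil and E2 were 589 and 467 in males and 559 and 396 in females for Cd79b. For Nkg7 they were 573 and 165, and 495 and 173.5. The other tested T and NK markers, Cd3e and Cd4, were at -0.01 and 0.09 without passing. The other measured genes of both lists lay under the filter, so these sums do not show a fall of either list as a whole. Monocyte sums over 5 genes were 576 to 796 and 585 to 837 in males and 620.4 to 667 and 734 to 878 in females. Only Cd68 of these 5 passed the filter. It was not called on average (0.12, limma adjusted p = 0.637) or in females (0.35, 0.344). The monocyte sums therefore do not show a rise of that list as a whole. With 1 array left out, Tfrc did not pass in 9 of 12 fits, Satb1 in 8, Prtn3 in 7, Cd34 in 4, and Gp9 and Cd79b in 1 each (adjusted p up to 0.125). No measured marker was at 0 on any array, but without a background level this does not show that each was expressed. Ms4a1, Cd3g and Gzma, for example, had mean intensities of 30.7, 31.9 and 42.5, far under the filter. The part of these markers in the replication values was not tested.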

How the data were processed

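RNA of the sorted HSCs was amplified (NuGEN Ovation Pico WTA V2) and labelled with biotin, per the labels' protocols. The authors deposited an intensity on a linear scale for each of 35474 probe sets and 12 arrays. How they were summarised, background-corrected and normalized is not given in the sources used here, and no background level comes with them. Median intensity per array was 143 to 159, and 3 arrays per group limit the precision.

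Probe sets took symbols from the platform's annotation: 21780 had 1 symbol, 1605 several and 12089 none, and only the first were used. Values were log2(intensity + 1), and genes above the 50th percentile of mean level (log2 7.52) were tested. Limma 3.58.1 in R 4.3.3 fitted 1 mean per group to all arrays, with eBayes (8 residual and 5.38 prior degrees of freedom). The labels give 3 mice per group, so p-values measure the spread between those samples. Steps were tested on simulated data. Python 3.11.15 and matplotlib 3.10.9 drew figures. The members and lists were chosen with earlier results of these data known. Named were called members, the 2 of each role with the smallest p, a fixed set (Mcm2, Cdc6, Cdt1, Gmnn, Pcna, Pola1, Rrm2, Tk1, E2f1 and Ccne1), and up to 12 called genes of the other replication list. Other member values, and Pold4, were named after they had been seen. The replicate numbers did not pair the arrays.

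Each of these choices was changed in turn: the normalization (quantile, or centring on the median), the offset (16), the filter (25th percentile, or none), the probe sets (their mean), the variance model (trend and robust, or array weights), the arrays fitted (only those compared, for single-sex and oil comparisons), a replicate block, and the leaving out of each array. Leaving out female E2 replicate 1 and female oil replicate 2 together was chosen after seeing the data.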

Additional observations from a re-analysis of the deposited data

How the results depend on the processing

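Members called in the averaged comparison numbered 9 with all arrays and 8 to 13 under quantile normalization, median centring, an offset of 16, the mean of probe sets, trend and robust estimation, and array weights, 3 with no filter, 5 with a filter at the 25th percentile, 3 to 21 with 1 array left out, and 4 without female E2 replicate 1 and female oil replicate 2 together, while the share of all tested genes called higher ran from 0.973% to 4.53% over these fits. In males the count was 0, and 3 with array weights, 12 for the male groups alone, 0 to 6 with 1 array left out and 9 without the same pair of arrays (0.145% to 1.97% of all genes). In females it was 1, and 0 with no filter, for the female groups alone or without that pair, and 0 to 5 with 1 array left out (0.10% to 1.33%). The tests of the sexes against each other gave 0 under every alternative run. Same-numbered arrays did not deviate together (r from -0.263 to 0.203, and 9 of 36 matched best with their own number), so the numbers were not used as pairs. A replicate block gave 10 called members in the averaged comparison, beside 2.69% of all genes called higher. Among members given by array, these changed sign in some fits that left out 1 array or that pair: Chaf1b, whose averaged value lay between -0.11 and 0.080, its male value between -0.031 and 0.13 and its female value between -0.28 and 0.099, and, in females, Ccne2 (-0.40 to 0.29), Chaf1a (-0.19 to 0.46), Mcm2 (-0.21 to 0.47) and Pcna (-0.012 to 0.34). Without female E2 replicate 1 alone, 12 of 45 members were below 0 in females: Chaf1b, Ccne2, Chaf1a, Mcm2, and Mcm3, Mcm6, Prim2, Pold3, Rfc1, Rfc4, Rfc5 and Lig1 (-0.13 to -0.0033). The cause was not tested. No measure of signal over background is given, so changes of Orc1, Ccne1 and Ccne2, near the filter, are approximate. The fit of compared groups alone was not run for the average or the response difference, which need all 4 groups.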

Other observations

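Pcna and Rpa3, like Tk1, had a second probe set, which was not used for the comparisons, and whether any of these probe sets also matches a copy elsewhere in the genome was not tested. The second Pcna probe set gave averaged log2 differences of 0.26 beside 0.26 for the one used, and the second Rpa3 probe set gave 0.14 beside 0.19. For Tk1 the second probe set read 411 to 501.5 on the male oil arrays and 601 to 746.5 on the male E2 arrays, with no overlap. Its averaged difference was 0.62 beside 0.50.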
